A study of Homo sapiens with 5 samples.

Results

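IRX-positive neurons at days 24 and 26 were the cells in which transcripts of Iroquois homeobox genes met transcripts of NR2F1, NR2F2 or CRABP1. A cell was a member if it held at least 1 unique molecular identifier (UMI, 1 counted RNA molecule) summed over IRX1, IRX2, IRX3 and IRX5 and at least 2 UMIs summed over NR2F1, NR2F2 and CRABP1. The cells were thus chosen by measured values, and the levels of those 7 genes are given only as a description. It also had to hold at least 1500 UMIs and 1000 genes, with under 20% of UMIs from mitochondrial genes. This gave 334 members of 9110 kept cells at D24 (3.67%, exact binomial 95% interval 3.29% to 4.07%). At D26 there were 299 members of 11060 kept cells (2.70%, 2.41% to 3.02%). They were compared, within each day, with the 8394 and 10470 kept cells that held 0 UMIs of these 4 IRX genes.

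The cells came from the wild type human embryonic stem cell line WA09, which was turned into neurons that include gonadotropin-releasing hormone (GnRH) neurons. All libraries used here shared the same course: inhibition of SMAD signalling with dorsomorphin and SB431542, then FGF8, then the Notch inhibitor DAPT, with no XAV939. The labels give 1 droplet library for each of D22, D24 and D26, with no replicate, so no comparison below has a test. Intervals are exact 95% intervals that cover counting error only, not differences between cultures.

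The kept cells had a median of 7180.5 UMIs at D24 and 8486 at D26, and the members' medians were 7527 and 9851. Barcodes kept in both libraries numbered 30, with 1 pair of members among them. Levels below are CPM, the UMIs of a gene in all cells of a group for every 1000000 UMIs of that group. A difference was called where a gene reached 20 CPM in either group and differed at least 2-fold, with the 7 genes of the rule left out. By this measure 304 of 5679 genes were higher in members at D24 (5.35%) and 358 were lower (6.3%). At D26, 188 of 6416 genes were higher (2.93%) and 132 lower (2.06%). The D26 numbers depend on the depth and on the cells used. They were 306 higher and 319 lower after thinning each cell to 1500 UMIs. Thinning kept the same cells but left fewer UMIs behind each level, so counting error was larger. In the cluster that held most members 276 were lower. Without these changes, the genes called in either direction were 11.7% at D24 and 4.99% at D26. The median log2 ratio over all tested genes was -0.02 at both days. A gene under 10 CPM in one group could pass the limit only where the other was at least 2-fold higher, so that its call was set by the limit, and counts over gene lists below describe the genes that passed.

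Iroquois proteins are homeodomain transcription factors that lie in clusters of neighbouring genes and help to divide the neural tube into regions. NR2F1 and NR2F2 (COUP-TF nuclear receptors) are transcription factors with roles in neuronal identity and migration. CRABP1 binds retinoic acid in the cytoplasm, ROBO3 guides commissural axons across the midline, and SST is the precursor of the neuropeptide somatostatin.

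IRX2 was the IRX gene found in most members, with a UMI in 210 of 334 at D24 and 222 of 299 at D26. IRX1 was found in 123 and 81 members, IRX3 in 113 and 123, and IRX5 in 100 and 139. The level of IRX3 was 68.8 CPM (59.5 to 79.1) at D24 and 102 CPM (91.3 to 113) at D26. For IRX5 the values were 48.3 CPM (40.6 to 57.0) and 96.8 CPM (86.5 to 108). IRX1 went the other way, with 58.7 CPM (50.2 to 68.3) at D24 and 36.8 CPM (30.6 to 43.9) at D26. Thus the intervals of the 2 days did not overlap for IRX1, IRX3 and IRX5, while those of IRX2, at 109 CPM (97.4 to 122) and 130 CPM (118 to 143), did. The rule chose the cells by these genes, and the members' median depth differed between the days, so these levels are only a description.

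CRABP1 was the most abundant gene of the rule. It stood at 2004 CPM (1952 to 2056) in members at D24 and 967 CPM (934 to 1001) at D26, against 59.5 and 38.5 CPM in cells with 0 IRX UMIs. NR2F1 was at 261 CPM (242 to 280) and then 394 CPM (374 to 416), and NR2F2 at 113 CPM (101 to 126) and then 224 CPM (209 to 241). At D22, 699 cells of the same library type met the rule, with CRABP1 at 609 CPM (595 to 623), so among members CRABP1 was highest on the middle day. The D22 members were of another make-up, so the days do not follow the same kind of cell. At least 2 UMIs of the progenitor gene SOX2 were held by 73.7% of them, against 19.2% of members at D24. At least 10 UMIs of the neuronal gene STMN2 were held by 21.5%, against 88.6% at D24.

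**Figure D1:**
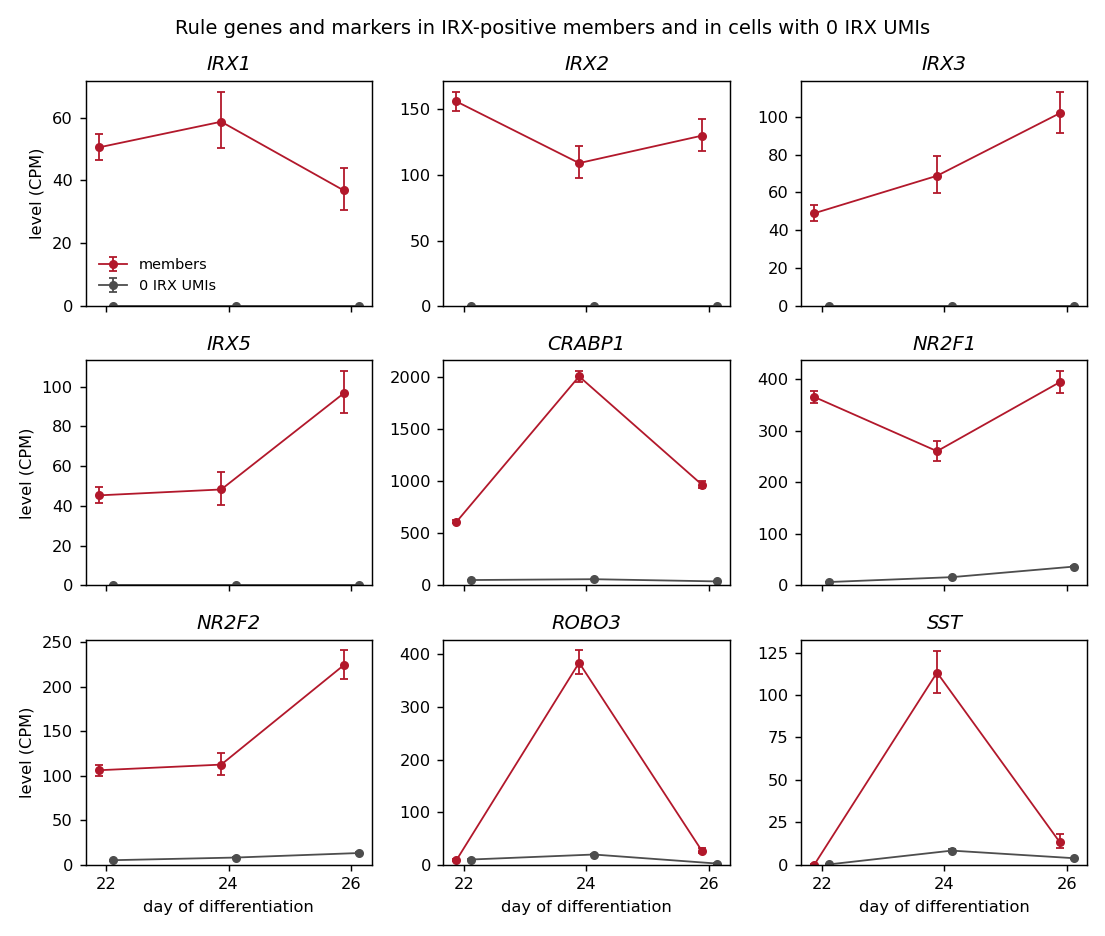
Levels in CPM (vertical axes, linear and starting at 0) of the 7 rule genes, ROBO3 and SST at D22, D24 and D26, in members (red) and in cells with 0 IRX UMIs (grey). Points are 1 library each and bars are 95% Poisson intervals. ROBO3 and SST peaked in the D24 members, at 384 and 113 CPM. At least 2 SOX2 UMIs were held by 73.7% of members at D22 and 19.2% at D24, so the days do not follow the same kind of cell.

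ROBO3 and SST did not enter the rule but were listed as markers of these cells with their values known, so their levels are a description. ROBO3 reached 384 CPM (362 to 407) in members at D24, against 19.5 CPM (18.5 to 20.6) in cells with 0 IRX UMIs, and 193 of 334 members held a UMI of it. At D26 it was at 26.7 CPM (21.5 to 32.8) against 2.42 CPM (2.11 to 2.76), in 35 of 299 members. At D22 members and cells with 0 IRX UMIs had about the same level, 8.89 CPM (7.24 to 10.8) and 10.0 CPM. Among the 3 days, ROBO3 was found in most members only at D24.

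SST marked few cells. Its level was 113 CPM (101 to 126) at D24 against 8.35 CPM (7.66 to 9.09), but only 27 members held a UMI, and the top 10 cells held 81.0% of its UMIs. At D26 it was 13.4 CPM (9.74 to 17.9) against 3.86 CPM (3.48 to 4.28), with all 45 UMIs in 9 members, and with cells thinned to 1500 UMIs the log2 ratio of 1.79 went to 0.83, under 2-fold. Of the 299 members at D26, 290 thus held no SST UMI, so most of them could not be found by SST. A member without a UMI is not shown to lack the gene. SSTR2, a somatostatin receptor, was at 37.5 CPM (30.8 to 45.3) against 4.22 CPM (3.73 to 4.75) at D24, in 48 members, and at 7.12 CPM (4.56 to 10.6) against 2.95 CPM (2.62 to 3.32) at D26. Of 5 listed receptors, SSTR2 alone reached 20 CPM at D24, only through the members, and the other 4 had 0 UMIs in members. SST lies on chromosome 3 from base 187668912 to 187670394 of GRCh38, on the minus strand. The 250 bases before its RefSeq start (GRCh38.p14, chr3:187670395-187670644, minus strand) are shown because SST was the leading gene of the D24 cluster described below. The capitals mark the cAMP response element TGACGTCA, searched on both strands, which begins 47 bases before the start and which 1.65% of 35116 promoter windows of this length hold.
SST: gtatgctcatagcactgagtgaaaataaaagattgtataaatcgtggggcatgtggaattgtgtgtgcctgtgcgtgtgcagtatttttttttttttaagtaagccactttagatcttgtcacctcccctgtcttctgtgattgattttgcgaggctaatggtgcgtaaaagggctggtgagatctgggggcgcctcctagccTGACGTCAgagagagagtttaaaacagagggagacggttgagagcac

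IRX UMIs were also found in cells of other classes. Among cells with at least 3 UMIs of DLX1, DLX2 and DLX5, called the DLX class here, 6.74% (4.37% to 9.87%) held an IRX UMI at D24 and 5.87% (4.72% to 7.21%) at D26. Among cells with at least 2 UMIs of TBR1 and PPP1R17 and no DLX UMI they were lower, at 4.62% (4.12% to 5.16%) and 2.98% (2.62% to 3.37%). Over all kept cells the shares were 7.86% and 5.33%, at similar median depths of 8436.5 UMIs in the DLX class and 7180.5 over all kept cells at D24, and of 9448.5 and 8486 at D26. At least 4 IRX UMIs were found in 0.562% (0.0681% to 2.01%) of the DLX class at D24 and 0.622% (0.285% to 1.18%) at D26. The members were therefore also taken in classes of 1, of 2 or 3, and of 4 or more IRX UMIs, with 126, 137 and 71 cells at D24 and 97, 81 and 121 at D26. At the edge of the rule, 21 cells at D24 held exactly 1 IRX UMI and 2 of the other genes, with ROBO3 at 148 CPM and EMX2 at 334 CPM. The 46 cells with 1 UMI of each kind, just outside, had ROBO3 at 51.6 CPM and EMX2 at 567 CPM. A further 55 cells outside, with 2 or more IRX UMIs but under 2 of the other genes, had ROBO3 at 216 CPM and EMX2 at 288 CPM. By ROBO3 and EMX2 these were closer to the members than the 21 just inside, so the edge was not sharp. At D26 the 17 cells just inside and the 41 just outside had EMX2 at 295 and 380 CPM, and 1 ROBO3 UMI each as groups. The 40 cells outside with 2 or more IRX UMIs had EMX2 at 273 CPM and 0 ROBO3 UMIs.

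When the cells of each day were clustered without the 7 rule genes, the members came together. At D24, 272 of 334 members (81.4%) fell in 1 cluster of 471 cells whose leading genes were SST, ROBO3, CRYBG3, THSD7A and RND3. A further 30 (8.98%) fell in a cluster of 80 cells led by genes of cell division, among them TOP2A, UBE2C and NUSAP1. At D26, 209 of 299 (69.9%) fell in a cluster of 253 cells whose leading genes included ST18, CRNDE, SHOX2 and RND3, and 27 (9.03%) in a cluster led by DLX6-AS1, SCGN and DLX genes.

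The share in the main cluster went with the number of IRX UMIs. At D26 it was 32 of 97 members with 1 IRX UMI, 80.2% of those with 2 or 3 and 92.6% of those with 4 or more. At D24 the shares were 73.8%, 83.2% and 91.5%. Members with 1 IRX UMI at D26 thus lay mostly in other clusters. With at least 2 IRX UMIs required, 232 genes were lower at D26 in place of 132.

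**Figure D2:**
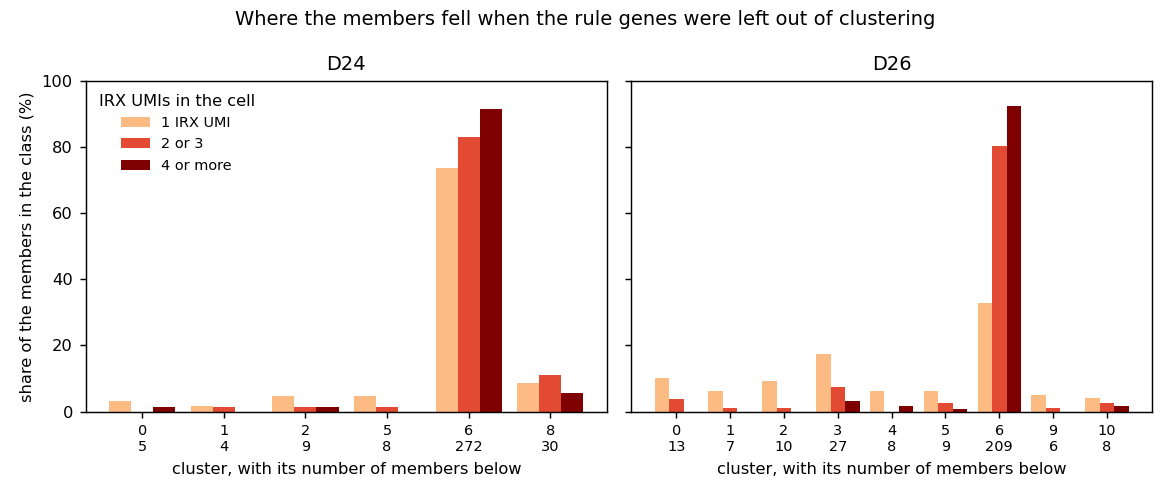
Share of members in each cluster (vertical axis, percent of the members of that class), for members with 1, with 2 or 3 and with 4 or more IRX UMIs, at D24 and D26. Clusters with fewer than 4 members are not drawn. Cluster 6 of each day held most members, with 91.5% and 92.6% of the class with 4 or more IRX UMIs, and at D26 only 32 of the 97 members with 1.

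Summed over all members, general neuronal markers were near the level of the other cells. All 8 neuronal markers (DCX, STMN2, TUBB3, ELAVL3, ELAVL4, MAP2, INA and GAP43) lay within 2-fold of the cells with 0 IRX UMIs at both days. Doublecortin (DCX) was at 925 and 851 CPM at D24 in members and in the other cells, and at 1378 and 1083 CPM at D26. The 30 members in the D24 cluster led by genes of cell division differed, with DCX at 292 CPM (241 to 349) against 1071 CPM (1028 to 1116) in the main cluster, STMN2 at 907 CPM (817 to 1005) against 6913 CPM (6802 to 7025), and VIM, an intermediate filament of progenitors, at 3653 CPM (3469 to 3844) against 941 CPM (900.5 to 983). NEFM, a subunit of neurofilaments that is abundant in neurons with long axons, was higher in members, at 1592 CPM (1546 to 1638) against 623 CPM (617 to 629) at D24 and at 2343 CPM (2291 to 2395) against 976 CPM (970 to 983) at D26. MAPT was lower at D24, at 55.6 CPM (47.3 to 64.9) against 170 CPM (167 to 174), and within 2-fold at D26.

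Transcripts of other cell types were also looked for. At D26, 41 of 299 members (13.7%, 10.0% to 18.1%) held at least 3 UMIs of DLX1, DLX2 and DLX5, and 77 (25.8%, 20.9% to 31.1%) at least 2 UMIs of TBR1 and PPP1R17. At D24 the numbers were 9 (2.69%, 1.24% to 5.05%) and 54 (16.2%, 12.4% to 20.6%) of 334. Over all kept cells, the DLX limit was met by 356 of 9110 at D24 and 1448 of 11060 at D26. The limit for TBR1 and PPP1R17, with no DLX UMI, was met by 6434 and 8023. The members' DLX shares were thus near those of all kept cells, and their TBR1 and PPP1R17 shares far below. The summed level of the 7 markers of TBR1 and PPP1R17 neurons was 472 CPM in members against 1693 CPM at D24 and 609 against 1733 CPM at D26. Members with at least 2 UMIs of TBR1 and PPP1R17 were deeper, with a median of 12179.5 UMIs at D24 and 16205 at D26. In all members the medians were 7527 and 9851. A doublet score (Scrublet) of at least 0.25 was found in 10.8% of members against 6.62% of cells with 0 IRX UMIs at D24 and in 15.7% against 7.34% at D26. The part of depth and of doublets in these transcripts was not tested. None of the listed markers of mesenchyme, epithelium and placode, choroid plexus, endothelium, oligodendrocyte lineage or pluripotent cells reached 20 CPM. Some markers of neural crest and of roof plate and hem did. Among the latter WLS, a carrier of Wnt proteins, was at 57.0 CPM (48.6 to 66.4) against 5.14 CPM at D24 and at 45.1 CPM (38.2 to 52.9) against 6.45 CPM at D26, and RSPO3, an enhancer of Wnt signalling, was lower in members at D24 and higher at D26. Of the WLS UMIs of members at D24, 124 lay in the 30 members of the cluster led by genes of cell division. In the members of the main cluster it was at 16.3 CPM (11.3 to 22.6) at D24 and 17.0 CPM (12.1 to 23.4) at D26.

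Cells in division sat among the members. The summed level of the 8 listed division markers was 781 CPM in members against 45.1 CPM at D24 and 231 CPM against 9.97 CPM at D26. Each marker measured passed the limit of 20 CPM through the members alone, so that its call as higher was set by the limit, and the UMIs came from few cells. Only 28 members at D24 and 4 at D26 held 5 or more UMIs of the list, and all 208 UMIs of TOP2A at D26 lay in 5 members. When the 28 and 4 members were left out, the log2 ratio of TOP2A went from 4.42 to -2.64 at D24 and from 6.45 to 0.38 at D26. That of CENPF, a kinetochore protein, went from 3.70 to -0.35 and from 3.90 to 0.21. The comparison cells kept their dividing cells, so these values do not compare like with like. TOP2A is also on the list that chose the members left out, so its fall was set in advance. HMGB2, a chromatin protein, fell below 2-fold at both days. The genes called higher numbered 220 in place of 304 at D24 and 162 in place of 188 at D26 without these members.

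The 15 genes named as higher at both days were those whose smaller log2 ratio of the 2 days was largest, among genes of at least 50 CPM in either group and with 10 CPM added for the ranking. TOP2A, CENPF and HMGB2 were 3 of them. ST18, a zinc finger transcription factor, was at 163 CPM (149 to 178) against 14.2 CPM (13.3 to 15.1) at D24 and at 90.8 CPM (80.9 to 102) against 1.95 CPM (1.68 to 2.25) at D26.

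RND3, a small GTPase that loosens the actin skeleton and acts in neuronal migration, was found in 265 members at D24 and 226 at D26. It was at 368 CPM (346 to 391) against 29.7 CPM (28.4 to 31.1) and then at 319 CPM (301 to 339) against 40.9 CPM (39.6 to 42.2). THSD7A, a membrane protein with thrombospondin repeats, was at 290 CPM (271 to 311) and 411 CPM (389 to 433), against 24.3 and 82.9 CPM. CCND2, a cyclin of the first phase of the cell cycle, was at 155 CPM (141 to 170) against 6.98 CPM (6.35 to 7.66) at D24 and 53.7 CPM (46.2 to 62.1) against 2.93 CPM (2.60 to 3.30) at D26. Unlike TOP2A it was spread over 186 and 93 members. PHLDA1, CRYBG3, POU3F4, TPD52, SOX2, NEUROD1 and CRNDE were also among them, with log2 ratios from 2.05 (TPD52) to 4.55 (CRYBG3) at D24 and from 2.68 (NEUROD1) to 4.01 (POU3F4) at D26.

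Of the 304 genes higher at D24, 120 were also higher at D26, which is 39.5% of the D24 genes and 63.8% of the 188 D26 genes. Over the 5428 genes tested at both days this is 2.21%. For lower genes the shared number was 80 (1.47%), which is 22.3% and 60.6% of the genes of each day. Only RSPO3 was called in opposite directions at the 2 days, which is 0.0184% of these genes.

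Factors of the anterior and dorsal forebrain were lower in members. Of 14 listed forebrain factors, 8 reached 20 CPM in either group at D24 and all 8 were lower by at least 2-fold, against 6.3% of all genes, with a median log2 ratio of -2.29. OTX2 and DMRTA2 among them passed the limit only through the comparison cells. At D26, 5 of 7 were lower, against 2.06% of all genes, with a median of -1.23. EMX2, a homeobox factor of the dorsal telencephalon, was at 94.5 CPM (83.6 to 106) against 618 CPM (612 to 624) at D24 and at 115 CPM (104 to 128) against 437 CPM (433 to 441) at D26. LHX2 was at 67.7 CPM (58.6 to 77.95) against 398 CPM (393 to 403) and then 54.3 CPM (46.7 to 62.8) against 147 CPM (145 to 150).

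The 10 named lower genes also held TBR1, a T-box factor of glutamatergic neurons, RELN, the secreted protein reelin, and PPP1R17, a phosphatase inhibitor. Most comparison cells had at least 2 UMIs of TBR1 and PPP1R17 and no DLX UMI, 6137 of 8394 at D24 and 7784 of 10470 at D26. The lower genes therefore also describe the make-up of the comparison cells. TBR1 was at 42.0 CPM (34.9 to 50.2) against 271 CPM (267 to 275) at D24 and at 80.1 CPM (70.9 to 90.3) against 274 CPM (271 to 277) at D26. RELN was at 14.2 CPM (10.2 to 19.3) against 97.2 CPM (94.8 to 99.6), then at 61.7 CPM (53.6 to 70.7) against 203 CPM (201 to 206). PPP1R17, SAMD3, MGAT4C, CNTNAP2 and EMX2OS had log2 ratios from -2.67 (SAMD3) to -1.91 (MGAT4C) at D24 and from -2.16 (EMX2OS) to -1.50 (CNTNAP2) at D26. EMX2OS overlaps EMX2 on the other strand, and the sources used here do not state the strand setting of the counts. ZIC1, ZIC2, ZIC4 and ZIC5, zinc finger factors of the dorsal neural tube and forebrain, were lower at both days, ZIC1 at 50.7 against 242 CPM and then 51.6 against 149 CPM.

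EMX2 at both days and TBR1 at D26 were higher in members with 1 IRX UMI than in those with more. At D26, EMX2 was at 189 CPM (164 to 217) in members with 1 IRX UMI, 90.4 CPM (71.1 to 113) in those with 2 or 3 and 76.0 CPM (62.6 to 91.5) in those with 4 or more. TBR1 was at 136 CPM (115 to 160), 45.8 CPM (32.4 to 62.9) and 59.1 CPM (47.3 to 72.9) in the same classes. At D24 EMX2 was at 140 CPM (118 to 165), 59.1 CPM (46.0 to 74.8) and 85.8 CPM (65.1 to 111). None of these classes overlapped with the level in cells with 0 IRX UMIs.

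GNRH1, the precursor of gonadotropin-releasing hormone, needs its comparison cells named. It was at 69.8 CPM (60.5 to 80.2) in members against 1155 CPM (1147 to 1163) at D24 and at 1161 CPM (1125 to 1198) against 3318 CPM (3306 to 3330) at D26. In members, 29 cells at D24 and 120 at D26 held a UMI, and the top 10 cells held 90.5% and 88.6% of the UMIs. By IRX class at D26 the level was 2630 CPM (2533 to 2729), 830 CPM (770 to 895) and 285 CPM (258 to 313). At D24 the class with 2 or 3 IRX UMIs was the highest, at 142 CPM (121 to 166) against 27.05 CPM (17.97 to 39.1) with 1, and it held both members with 10 or more GNRH1 UMIs. Cells with DLX transcripts and no IRX UMI had 15377 and 16496 CPM, and cells with TBR1 or PPP1R17 transcripts and neither DLX nor IRX had 38.5 and 119 CPM. Against the last of these the members were higher, not lower, with log2 ratios of 0.86 at D24 and 3.29 at D26. How far free RNA carries these UMIs was not tested.

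**Figure D3:**
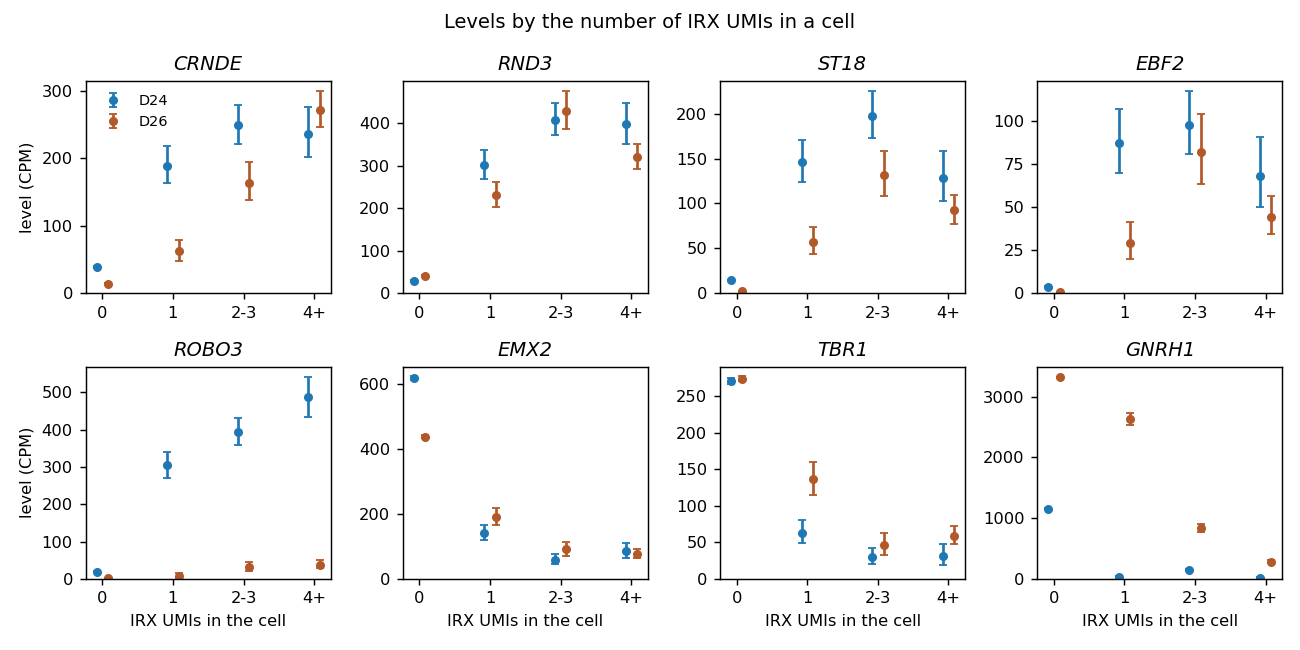
Levels in CPM (vertical axes, linear from 0) of 8 genes in cells with 0 IRX UMIs and in members with 1, with 2 or 3 and with 4 or more IRX UMIs (horizontal axes), at D24 (blue) and D26 (brown). Bars are 95% Poisson intervals of 1 library a day. At D26 CRNDE stepped up over the classes to 272 CPM, while EMX2, TBR1 and GNRH1 were highest in cells with 0 IRX UMIs.

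Most factors of the diencephalon, midbrain, hindbrain and spinal cord were below the count limit. Of 35 listed, 3 reached 20 CPM in either group at D24 (EN2, PAX2 and OTP) and 4 at D26 (LMX1B, NKX6-1 and TLX3 among them). They passed this limit through the members, in which they were high, so their number says nothing of the list. PAX2, a paired box factor of midbrain, hindbrain and spinal interneurons, was at 21.9 CPM (16.8 to 28.0) against 0.0935 CPM (0.0343 to 0.203) at D24, in 43 members. EN2, a homeobox factor of the midbrain and hindbrain border, was at 30.6 CPM (24.5 to 37.7) against 0.623 CPM (0.445 to 0.848) at D24, in 64 members. TLX3, a homeobox factor of excitatory dorsal horn neurons, was at 33.5 CPM (27.6 to 40.3) at D26, in 42 members, against 2 UMIs in all 10470 cells with 0 IRX UMIs. LMX1B, a LIM homeobox factor of the midbrain and dorsal horn, was at 21.1 CPM (16.5 to 26.6) against 0.0642 CPM (0.0236 to 0.140) at D26. The 15 listed HOX genes of paralogue groups 1 to 5, which mark the hindbrain and spinal cord, had 0 UMIs in members at both days. A count of 0 allows up to 3 UMIs of each, as a one-sided 95% limit.

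NHLH1 and NEUROG1, a pair of factors with a basic helix-loop-helix domain, were higher in members at both days. At D24 both also passed 20 CPM in the comparison cells. Most other factors of this kind that were measured passed the limit only through the members, and their number says nothing of the list. NHLH1, a factor of newly born neurons, was at 124 CPM (111 to 138) against 22.4 CPM (21.3 to 23.6) at D24, in 156 members, and at 41.0 CPM (34.4 to 48.4) against 1.45 CPM (1.21 to 1.71) at D26, in 62. NEUROG1, a proneural factor, was at 91.4 CPM (80.7 to 103) against 43.9 CPM (42.3 to 45.5) at D24 and at 27.6 CPM (22.3 to 33.8) against 0.450 CPM (0.324 to 0.608) at D26. The members held less of both at D26 than at D24, while in the other cells they had nearly gone.

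EBF1, EBF2 and EBF3, factors of neurons that leave the ventricular zone, were higher at both days. Of the 19 ONECUT, EBF and LIM factors listed, 4 of 10 measured were higher and 1 lower at D24, and 5 of 12 higher and 0 lower at D26, where the shares over all genes were 5.35% and 6.3%, and 2.93% and 2.06%. EBF2, which passed 20 CPM only through the members, was at 86.9 CPM (76.4 to 98.3) against 3.77 CPM (3.31 to 4.28) at D24 and at 48.7 CPM (41.5 to 56.7) against 0.696 CPM (0.537 to 0.887) at D26. EBF1 was at 106 CPM (94.7 to 119) and then 206 CPM (191 to 222) in members, against 40.7 and 33.5 CPM. GFRA1, a receptor for glial cell line-derived neurotrophic factor, was at 84.8 CPM (74.5 to 96.1) against 2.29 CPM (1.93 to 2.69) and then 36.8 CPM (30.6 to 43.9) against 0.803 CPM (0.631 to 1.01). GFRA1 and CXCR4 at both days, and CNTN2 at D26, passed 20 CPM only through the members. CXCR4, the receptor of the chemokine CXCL12, was at 28.5 CPM (22.7 to 35.4) against 0.997 CPM (0.768 to 1.27) and then 41.0 CPM (34.4 to 48.4) against 0.567 CPM (0.425 to 0.742), and CNTN2, an axonal adhesion molecule, at 197 CPM (181 to 214) against 86.5 CPM (84.3 to 88.8) and then 49.0 CPM (41.8 to 57.0) against 5.89 CPM (5.41 to 6.40).

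**Figure D4:**
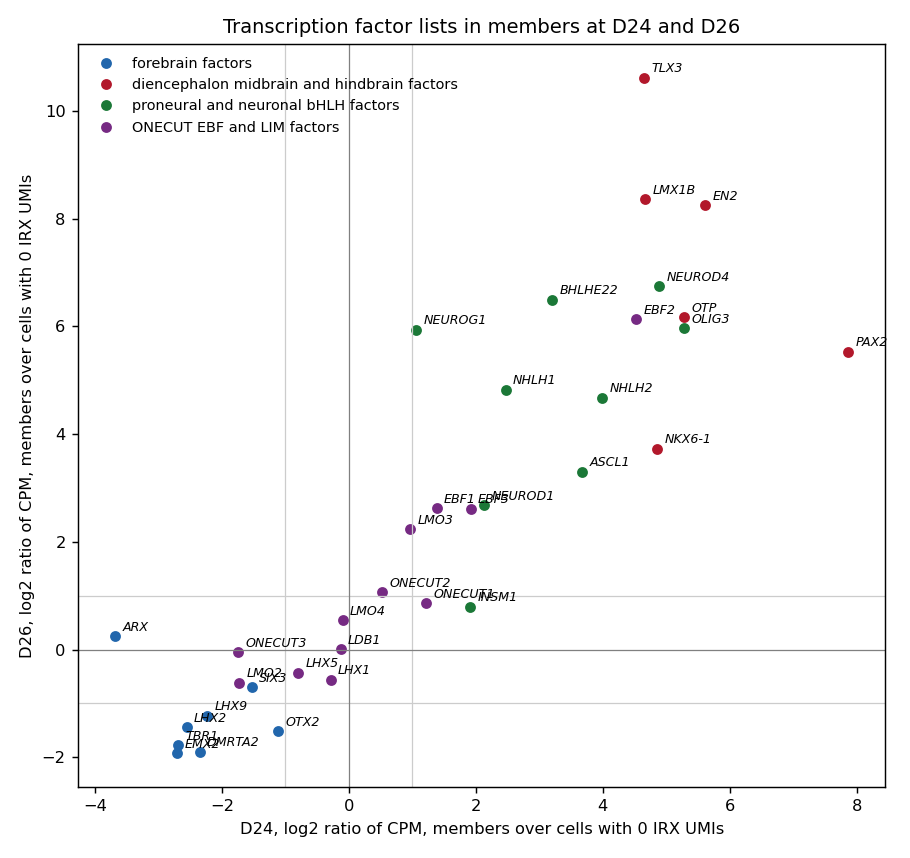
Log2 ratio of CPM in members over cells with 0 IRX UMIs at D24 (horizontal) and D26 (vertical) for genes named from 4 factor lists that reached 20 CPM in either group at either day. Each point is 1 gene and grey lines stand at 0 and at 2-fold. Most forebrain factors lie at the lower left (EMX2 at -2.71 and -1.92). The diencephalon, midbrain and hindbrain factors at the upper right (TLX3 at 4.65 and 10.61, the latter resting on 2 UMIs in the comparison cells) were drawn because members brought them past 20 CPM, which sets their place.

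The counts of the other gene lists are to be read against the shares over all genes, 5.35% higher and 6.3% lower at D24 and 2.93% and 2.06% at D26. Of 30 other neuronal factors, 4 of 21 measured were higher and 6 lower at D24, and 6 of 23 and 5 at D26. POU3F2, a POU factor of neuronal differentiation, was at 168 CPM (154 to 184) against 33.5 CPM (32.1 to 34.9) and then 226 CPM (211 to 243) against 82.6 CPM (80.8 to 84.5). Of 23 progenitor and Notch genes, 6 of 12 measured were higher and 1 lower at D24, and 5 of 10 and 1 at D26, but SOX2 and SOX3 at both days and DLL1 at D24 passed 20 CPM only through the members. SOX3 was at 54.5 CPM (46.3 to 63.8) against 2.88 CPM (2.48 to 3.33) and then 48.1 CPM (41.0 to 56.1) against 1.96 CPM (1.69 to 2.26), while FABP7, a lipid binding protein of radial glia, was lower at both days.

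Of 39 neuropeptide and granule genes, 1 of 16 measured was higher (SST) and 8 lower at D24, and 2 of 14 (ADCYAP1 and NMU) higher and 5 lower at D26. The 1 of 16 higher is near the share over all genes at D24 (5.35%). The prohormone convertases PCSK1 and PCSK2 were lower at both days, PCSK1 at 10.4 CPM (7.03 to 14.9) against 48.6 CPM (47.0 to 50.4) and then 56.7 CPM (48.9 to 65.3) against 123 CPM (121 to 125). Of 20 transmitter genes, 0 of 2 measured were called at D24, and at D26 GAD2, an enzyme that makes the transmitter GABA, was higher, at 78.4 CPM (69.2 to 88.4) against 35.2 CPM (33.99 to 36.4), and 1 of 3 measured was lower. In the 27 members of the DLX cluster GAD2 was at 517 CPM (437 to 607), with 149 UMIs. In the 209 members of the main cluster it was at 17.0 CPM (12.1 to 23.4), below the level of the comparison cells. CRABP2, the second retinoic acid binding protein, was at 29.5 CPM (23.6 to 36.5) against 36.2 CPM (34.7 to 37.7) at D24 and at 126 CPM (115 to 139) against 18.8 CPM (17.9 to 19.7) at D26. Of 25 Wnt genes, 2 of 5 measured were higher and 2 lower at D24, and 3 of 7 and 2 at D26. SFRP2, a Wnt antagonist, was higher at both days and FRZB, another, lower. SFRP2 and WLS at both days and RSPO3 at D26 passed 20 CPM only through the members. The number of higher Wnt genes thus says nothing of the list. SFRP2 was at 17.2 CPM (12.1 to 23.7) and 17.9 CPM (12.8 to 24.4) in the main cluster, against 121 CPM (89.6 to 160) in the dividing cluster at D24 and 97.1 CPM (64.5 to 140) in the DLX cluster at D26. Of 29 guidance genes, 4 of 16 measured were higher at each day, with 3 and 2 lower. Among the higher ones, ROBO3 and CXCR4 at both days and CNTN2 at D26 passed 20 CPM only through the members.

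Not every gene near an IRX gene followed it. IRX2 and IRX1 lie on chromosome 5 (2745845 to 2751677, minus strand, and 3595832 to 3601403, plus strand, GRCh38), and IRX3 and IRX5 on chromosome 16 (54283304 to 54286787, minus strand, and 54930865 to 54934485, plus strand). C5orf38, also named IRX2-DT, starts 454 bases from the start of IRX2 in the opposite direction. It was at 42.0 CPM (34.9 to 50.2) in members against 3.47 CPM at D24 and at 35.6 CPM (29.5 to 42.6) against 1.84 CPM at D26. CRNDE is a long non-coding RNA gene whose GENCODE start lies 1676 bases from that of IRX5, in the opposite direction. It was at 225 CPM (208 to 243) against 38.5 CPM (37.0 to 40.0) at D24 and at 179 CPM (165 to 194) against 14.2 CPM (13.5 to 15.0) at D26. At D26 it was at 61.9 CPM (47.9 to 78.7), 164 CPM (138 to 194) and 272 CPM (246 to 300) over the classes of 1, of 2 or 3 and of 4 or more IRX UMIs.

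The other IRX genes of both loci were nearly silent, with 3 UMIs of IRX4 and 3 of IRX6 in members at D24 and 5 and 4 at D26. The far larger group of comparison cells held 0 UMIs of IRX4 and 1 of IRX6 at D24, and 1 and 0 at D26. These few UMIs thus lay mostly in members. FTO, whose gene body lies next to IRX3, did not differ at least 2-fold, at 12.2 CPM against 17.1 CPM and then 28.5 CPM against 32.0 CPM. C5orf38 and these neighbours were looked up after values of the members were known. The 250 bases before the RefSeq starts of IRX1 (chr5:3595582-3595831, plus strand), IRX2 (chr5:2751678-2751927, minus strand) and CRNDE (chr16:54928887-54929136, minus strand, all GRCh38.p14) are shown because IRX1 and IRX2 are genes of the rule and CRNDE lies next to IRX5. The window of CRNDE lies inside its GENCODE gene, since the RefSeq and GENCODE starts differ. Capitals mark the motif CCAAT, searched on both strands, which 32.0% of the promoter windows hold, and it begins 25, 43 and 216 bases before the start.
IRX1: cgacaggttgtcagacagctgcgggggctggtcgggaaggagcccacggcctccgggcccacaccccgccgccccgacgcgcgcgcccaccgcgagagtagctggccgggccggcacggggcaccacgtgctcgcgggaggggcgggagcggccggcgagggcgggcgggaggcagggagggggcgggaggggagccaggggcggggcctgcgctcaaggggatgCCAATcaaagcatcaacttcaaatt
IRX2: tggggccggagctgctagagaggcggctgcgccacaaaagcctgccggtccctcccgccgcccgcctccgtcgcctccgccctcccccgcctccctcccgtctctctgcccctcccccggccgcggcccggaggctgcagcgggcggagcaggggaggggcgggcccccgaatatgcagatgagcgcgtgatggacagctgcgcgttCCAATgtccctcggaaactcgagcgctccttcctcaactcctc
CRNDE: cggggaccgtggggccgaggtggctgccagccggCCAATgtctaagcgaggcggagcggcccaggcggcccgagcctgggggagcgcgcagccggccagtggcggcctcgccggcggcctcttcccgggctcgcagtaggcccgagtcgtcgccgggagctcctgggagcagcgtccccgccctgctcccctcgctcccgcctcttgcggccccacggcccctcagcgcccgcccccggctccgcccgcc

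The finding of 2 IRX genes in the same cell is described here within 1 locus and across loci. This was read over the 830 kept cells at D24 and 1855 at D26 with at least 2 UMIs of NR2F1, NR2F2 and CRABP1, since among members alone the rule itself forces the IRX genes apart. Of these cells, 496 at D24 and 1556 at D26 held 0 IRX UMIs, so any 2 IRX genes look linked in this reading. IRX2 was found in 63.4% (54.3% to 71.9%) of the cells with IRX1 and in 18.7% of those without at D24, and in 70.4% (59.2% to 80.0%) and 9.30% at D26. IRX5 was found in 44.2% (34.9% to 53.9%) of the cells with IRX3 and in 6.97% of those without at D24, and in 73.2% (64.4% to 80.8%) and 2.83% at D26. The cells with IRX3 had a median of 7138 UMIs at D24 and 10034 at D26. For genes of different loci the shares at D24 were smaller. IRX3 was found in 24.4% (17.1% to 32.95%) of the cells with IRX1 against 11.7% of those without, and in 23.3% (17.8% to 29.6%) of the cells with IRX2 against 10.3%. IRX5 was found in 20.3% (13.6% to 28.5%) of the cells with IRX1 against 10.6%, and in 15.2% (10.7% to 20.8%) of the cells with IRX2 against 11.0% (8.62% to 13.7%), where the intervals overlap. At D26 the 4 shares across loci lay between 34.7% and 42.0%, against 2.82% to 5.92% in cells without the first gene. For IRX1 and IRX2 at D26 the share without the first gene was larger too, at 9.30%. This pair is thus not shown to be more closely linked at D26 than the pairs across loci. Among members alone, IRX5 was in 44.2% of those with IRX3 and in 22.6% (17.3% to 28.7%) of the rest at D24. At D26 these shares were 73.2% and 27.8% (21.4% to 35.1%). For IRX1 and IRX2 the members' shares with and without the first gene overlapped at both days. For the 4 pairs across loci they were lower with the first gene than without it.

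Within the members, 3 sets of cells could be told apart by factors that the rule did not use. The factors were picked after their values were known, so the sets are a description. SHOX2, a homeobox factor of excitatory interneurons of hindbrain and spinal cord, marked the first set, with 41 members at D24 and 62 at D26.

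TLX3, LMX1B and POU4F1, factors that dorsal excitatory neurons of the spinal cord and hindbrain share, formed the second set. LMX1B was in 66.7% (50.5% to 80.4%) of the 42 members with TLX3 at D26 and in 3.11% of the rest, and POU4F1 in 45.2% (29.8% to 61.3%) and 2.33%. At D24, LMX1B was in 43.5% (23.2% to 65.5%) of 23 members with TLX3 and in 5.79% of the rest. POU4F1 was then in 13.0% (2.78% to 33.6%) and 3.54% (1.78% to 6.24%), where the intervals overlap.

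OTP and PAX2 formed the third set, mainly at D24, when PAX2 was in 41.7% (27.6% to 56.8%) of the 48 members with OTP and in 8.04% of the rest. At D26 only 12 members held OTP and 3 held PAX2.

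The sets hardly shared cells. They held 41, 47 and 71 members at D24 in the order above, and 62, 54 and 14 at D26, with 5 and 2 members in more than 1 set. At D24, however, TLX3 was as frequent in members with SHOX2, at 7.32% (1.54% to 19.9%), as in the rest, at 6.83% (4.22% to 10.3%). Of the other factors, LMX1B and PAX2 were in 0 members with SHOX2 at D24, OTP in 2 and POU4F1 in 1. The remaining 180 and 171 members held none of the 6 factors, and since these factors give few UMIs a cell, a member without a UMI is not shown to lack the gene. The share of members with SHOX2 was 12.3% (8.95% to 16.3%) at D24 and 20.7% (16.3% to 25.8%) at D26. For OTP or PAX2 it was 21.3% (17.0% to 26.04%) and then 4.68% (2.58% to 7.73%), and for TLX3, LMX1B or POU4F1 14.1% (10.5% to 18.3%) and 18.1% (13.9% to 22.9%). The cells were not thinned for these shares, and the members' median depth was 7527 UMIs at D24 and 9851 at D26. The part of depth in the changes between days was not tested. In cells with 0 IRX UMIs the 3 sets of factors were each found in under 1% of cells, at most 0.596% (TLX3, LMX1B or POU4F1 at D24). As counts these were 46, 50 and 22 cells at D24 and 29, 29 and 4 at D26, in the order above. At D24 the first 2 counts were larger than those of the members, so the factors were not confined to members.

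**Figure D5:**
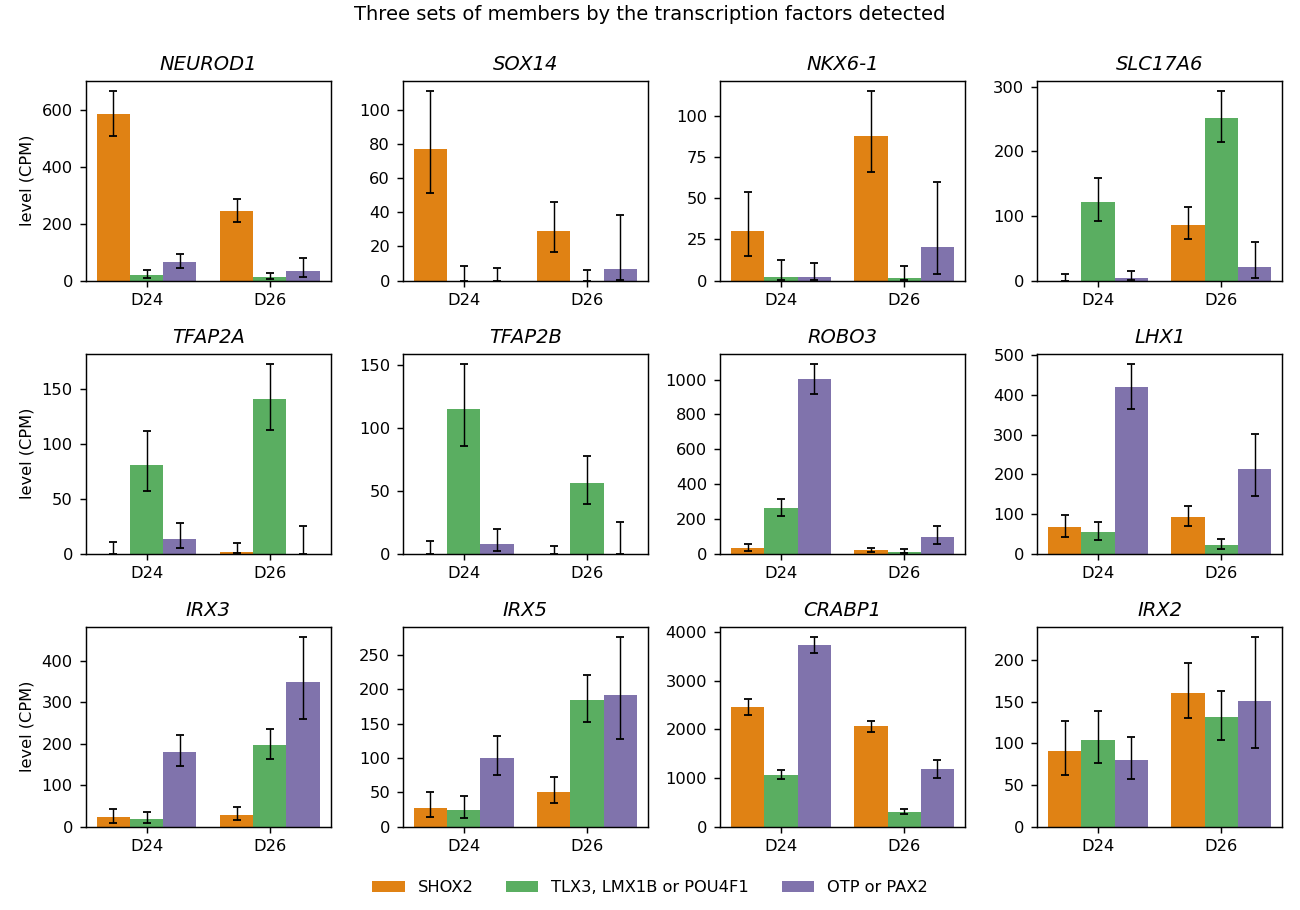
Levels in CPM (vertical axes, linear from 0) of 12 genes in members with SHOX2 (orange), with TLX3, LMX1B or POU4F1 (green) and with OTP or PAX2 (purple) at D24 and D26, with members of more than 1 set left out. Bars are summed levels of 1 library a day and whiskers 95% Poisson intervals. SOX14 and NKX6-1 were highest in the first set, TFAP2A, TFAP2B and SLC17A6 led in the second, and ROBO3 and LHX1 in the third.

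The sets differed in other genes. Cells with SHOX2 held NEUROD1 at 585 CPM (509 to 669) at D24 and 244 CPM (206 to 287) at D26, against 18.0 CPM (7.79 to 35.6) and 12.8 CPM (5.53 to 25.3) in cells with TLX3, LMX1B or POU4F1. SOX14, a factor of ventral interneurons, was at 76.9 CPM (51.1 to 111) and 28.8 CPM (16.8 to 46.1) in the first set and had 1 UMI in the other sets over both days, in a cell with OTP or PAX2 at D26. NKX6-1, a homeobox factor of the ventral neural tube, was at 88.1 CPM (65.8 to 116) in the first set at D26, where 32 of 60 cells held it, against 1 UMI in the second set and 3 in the third. LHX4, a LIM factor of the same ventral neurons, was at 39.0 CPM (24.7 to 58.5) at D26 in the first set and at 1.60 CPM (0.0406 to 8.93) in the second. At D24 this set also held dividing cells, with TOP2A at 577 CPM (501 to 660), in 9 of 36 cells. Its 10 leading genes at D24 were 7 genes of the cell cycle, among them CENPF in 16 and CCNB2 in 23 of the 36 cells, and the metallothioneins MT1X, MT2A and MT1F, with MT1X at 1447 CPM (1326 to 1576) against 6.25 CPM in the other sets. The part of dividing cells in the D24 values of this set was not tested.

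Cells with TLX3, LMX1B or POU4F1 held SLC17A6, the vesicular glutamate transporter that loads glutamate, at 122 CPM (91.5 to 159) at D24 and 252 CPM (214 to 294) at D26. Cells with SHOX2 had 0 UMIs of it at D24 and 86.4 CPM (64.3 to 114) at D26. TFAP2A, an AP-2 factor, was at 81.2 CPM (56.9 to 112) and 141 CPM (113 to 174), against 0 UMIs and 1 UMI in the first set. TFAP2B was at 115 CPM (85.6 to 151) and 56.1 CPM, and had 0 UMIs in the first set at both days. TFAP2A and TFAP2B are also markers of neural crest. The summed level of the 8 listed markers of neural crest and glia was 57.0 CPM in members against 16.4 CPM at D24 and 59.1 CPM against 13.9 CPM at D26. SOX10 had 0 UMIs in members at both days, which allows up to 3 UMIs. The part of neural crest cells in these values was not tested.

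Cells with OTP or PAX2 had the highest level of ROBO3 among the sets, at 1002 CPM (918 to 1093) at D24, in 63 of 69 cells. Cells with SHOX2 and no factor of another set had 30.2 CPM (15.1 to 54.1), in 3 of 36. By single genes, ROBO3 was in 95.3% (84.2% to 99.4%) of the 43 members with PAX2 and in 12.2% (4.08% to 26.2%) of all 41 with SHOX2. The second set held it often as well. At D24 it was in 85.7% of the 14 members with POU4F1, 75% of the 28 with LMX1B and 65.2% of the 23 with TLX3, against 57.8% of all members. LHX1, a LIM factor of many inhibitory interneurons, was at 420 CPM (366 to 480) with OTP or PAX2 and at 65.9 CPM (42.2 to 98.1) with SHOX2.

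The IRX genes themselves were not even over the sets. At D24, IRX3 was at 180 CPM (145 to 220) in cells with OTP or PAX2, and at 21.97 CPM (9.49 to 43.3) and 18.0 CPM (7.79 to 35.6) in the first and second sets. At D26 it was at 349 CPM (260 to 459) with OTP or PAX2 and at 197 CPM (164 to 235) with TLX3, LMX1B or POU4F1, while cells with SHOX2 stood at 28.8 CPM (16.8 to 46.1). IRX5 was also highest in the third set, at 101, 24.8 and 27.5 CPM at D24 and 192, 184 and 50.8 CPM at D26 for the third, second and first set, but at D26 the intervals of the third and second overlapped. IRX2 was alike in the sets, between 79.3 and 104 CPM at D24 and between 131 and 161 CPM at D26, with intervals that overlapped. CRABP1 was low where TLX3, LMX1B or POU4F1 were found, at 308 CPM (266 to 354) at D26 against 2063 CPM (1949 to 2182.3) with SHOX2.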

How the data were processed

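The 3 libraries at D22, D24 and D26 without XAV939 were droplet libraries (10x 3′ kit). Per the file headers and the submitters' processing notes, the authors made whole-number UMI counts per gene and cell with Cell Ranger 3.1 on GRCh38 and deposited them as filtered matrices. The libraries held 9905 barcodes and 71397909 UMIs at D24, and 12171 barcodes and 100865176 UMIs at D26, which is the depth behind each level. The multiplexed libraries of earlier days were not used here.

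Members were picked by the thresholds given at the start, with Python 3.11.15 and numpy 2.4.6. The members and the gene lists were chosen with earlier results of these data known. With 1 library per day there was no replicate and no test. CPM were summed over cells, with exact 95% Poisson intervals, and shares have Clopper-Pearson intervals (scipy 1.17.1). UMIs from 1 cell are not independent, so intervals cover counting error only. Named genes were the rule genes and markers, the 15 higher and 10 lower genes of at least 50 CPM in either group at both days with the largest smaller log2 ratio of CPM + 10, and members of lists. Clusters were made with scanpy 1.11.5 (Leiden, resolution 0.5, 30 components, 20 neighbours, 2000 variable genes). Scrublet's automatic threshold called 0 cells and was not used, so a score of 0.25 served as an alternative and doublets were otherwise kept. Gene positions came from GENCODE on GRCh38. Promoter sequences came from RefSeq. On simulated counts, 3-fold changes were called for 50 of 50 higher and 50 of 50 lower genes at both days. The changes were put only into genes well above 20 CPM, with Poisson counts that hold no differences between cells. Genes near the limit, or with most UMIs in few cells, were thus not tried. Alternatives covered depth, doublets, thresholds of the rule, thinning to 1500 UMIs, the CPM limit, edgeR 4.0.16 TMM factors and the comparison cells. Some genes that the rule names are not reported here.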

Additional observations from a re-analysis of the deposited data

Results flagged for a closer look

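RSPO3, a secreted enhancer of Wnt signalling, was the only gene called lower in members at D24 and higher at D26. It was at 101 CPM (89.8 to 113) against 478 CPM (473 to 484) in cells with 0 IRX UMIs at D24, a log2 ratio of -2.24. At D26 it was at 29.1 CPM (23.6 to 35.4) against 10.5 CPM (9.90 to 11.2), a log2 ratio of 1.46. The log2 ratios differed by 3.71, and this difference was not tested, since each day is 1 library. At D26 the UMIs lay in 20 members, with 87.8% of them in the top 10 cells. At D22 members had 70.2 CPM (65.4 to 75.3) against 149.6 CPM (147 to 152).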

How the results depend on the processing

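The share of members was 3.67% at D24 and 2.70% at D26. It went to 2.28% and 1.83% with at least 2 IRX UMIs, to 2.89% and 2.14% with at least 4 UMIs of NR2F1, NR2F2 and CRABP1, and to 0.790% and 0.542% after thinning to 1500 UMIs. The genes called higher and lower, 304 and 358 at D24 and 188 and 132 at D26, numbered 135 and 174, and 77 and 69, with a limit of 50 CPM. With no limit they numbered 6043 and 1137, and 6372 and 566. In these calls a count under 3 UMIs was taken as 3, which is a higher CPM in the smaller group of members. A gene with 0 UMIs in members could thus be called higher, so the numbers of higher genes with no limit say nothing of the members. Thinning gave 306 and 319 at D26, with the same cells but fewer UMIs and so larger counting error. Lower genes at D26 rose to 224 without cells of a Scrublet score of at least 0.25, to 232 with at least 2 IRX UMIs, to 251 with at least 4 and to 276 in the main cluster. The last 2, and the settings without dividing members, were chosen after seeing the data. The cause of the other shifts was not tested. Under edgeR's TMM factors the counts were 284 and 394 at D24 and 176 and 154 at D26.

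For 27 named genes under 15 settings at both days, 539 of 810 log2 ratios stayed within counting error, 265 moved and 6 reversed. GNRH1 reversed against TBR1 or PPP1R17 cells, to 0.86 at D24 and 3.29 at D26. At D24, CENPF reversed to -0.067 in the main cluster and to -0.35 without dividing members, and TOP2A to -1.41 and -2.64. In these settings the comparison cells kept their dividing cells, so the reversals do not compare like with like. No paired analysis was possible because each day is 1 library. Genes below about 1 CPM in members rest on 3 or fewer UMIs.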
